A study of Mus musculus with 10 samples.

Results

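The left ventricular (LV) expression of 10 genes of bone morphogenetic protein (BMP), activin and growth differentiation factor (GDF) signaling was compared between nAAC mice and sham mice. The genes were chosen by name from the 55401 genes in the tables, and all 10 were found. They are 8 genes of secreted ligands (Gdf15, Inhba, Inhbb, Mstn, Bmp2, Bmp4, Bmp6 and Bmp10) and 2 genes of follistatin-like secreted proteins (Fstl1 and Fstl3). nAAC stands for neonatal ascending aorta constriction, an operation on newborn pups that loads the growing LV with pressure, and sham mice had the operation without the constriction. All mice were of WT genotype and 4 weeks old, with 5 mice and 5 libraries in each group, and their sex was not given in the labels. Values are FPKM, fragments per kilobase of transcript scaled to library depth, so levels can be compared between genes per length, except for Bmp6, whose deposited normalization stood apart as described with it.

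BMPs, activins and GDFs are dimeric ligands of the transforming growth factor-β (TGF-β) superfamily that bring together type I and type II serine-threonine kinase receptors. BMP receptors mainly phosphorylate Smad1, Smad5 and Smad9, activin and myostatin receptors mainly phosphorylate Smad2 and Smad3, and both kinds of Smad enter the nucleus with Smad4. Secreted proteins such as follistatins, chordin and noggin bind the ligands and keep them from their receptors, and in the heart the family is known for roles in valve and chamber formation, fibrosis and control of muscle mass.

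Of the genes with differences described here, Fstl1 and Bmp2 are shown without a promoter sequence. Promoter sequences are printed for the other 5, of which 4 differed upward (Gdf15, Inhba, Bmp4 and Fstl3) and 1 downward (Mstn). Each is the stretch just before the first base of the gene, read 5′ to 3′ on the strand of the gene, from RefSeq on GRCm38.p6. Capitals mark a match to the TATA box letters TATAAA or the CCAAT box letters CCAAT on either strand.
Gdf15, minus strand, chr8:70632457-70632556: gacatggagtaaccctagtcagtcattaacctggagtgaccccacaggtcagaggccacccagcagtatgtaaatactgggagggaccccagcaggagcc
Inhba, plus strand, chr13:16011751-16011850: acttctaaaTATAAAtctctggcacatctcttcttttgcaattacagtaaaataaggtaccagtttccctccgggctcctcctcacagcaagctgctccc
Mstn, plus strand, chr1:53061540-53061639: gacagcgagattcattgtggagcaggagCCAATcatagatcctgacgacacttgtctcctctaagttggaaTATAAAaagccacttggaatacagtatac
Bmp4, minus strand, chr14:46390670-46390769: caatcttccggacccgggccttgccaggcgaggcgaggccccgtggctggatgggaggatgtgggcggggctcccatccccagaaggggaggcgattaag
Fstl3, plus strand, chr10:79777174-79777271: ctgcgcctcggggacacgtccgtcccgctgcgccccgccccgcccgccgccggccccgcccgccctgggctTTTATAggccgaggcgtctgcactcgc

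The Fstl3 stretch was 79.6% G and C and the Bmp4 stretch 69.0%, whereas the Mstn stretch was 43.0% and the Inhba stretch 44.0%. Counted back from the first base of the gene, the first of the TATA box letters stood at -29 for Mstn, at -27 for Fstl3 and at -91 for Inhba. In windows of 250 bases before the start, 12.3% of the 32536 distinct windows of all genes held these letters and 33.8% held CCAAT. Windows were available for 9 of the 10 genes. They precede a RefSeq start, which can lie inside the gene, so that the Bmp6 window held 250 bases of its own exon, the Fstl1 window 182 and the second Gdf15 window 196. No window of these genes held the SMAD letters GTCTAGAC (0.169% of all windows) or GGCGCC (9.65%), or the ATF4 composite element letters TGATGNAA (3.4%). The AP-1 letters TGANTCA (6.73% of all windows) were found for Mstn only, as TGAATCA at -170. These matches describe letters in the windows and were not tied to the expression values.

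Estimated library sizes lay between 4.86 and 6.82 gigabases of aligned sequence for nAAC mice and between 5.06 and 5.24 for sham mice. No 2 libraries were copies of each other, since at most 0.101% of the tested genes had the same FPKM in any pair. The median log2 FC of the 11867 genes tested was 0.22 in favor of nAAC mice, and it was -0.000769 after median-ratio scaling of the libraries, so each difference below is to be read against that shift. Cardiomyocyte markers were high in all mice, with a summed FPKM of 8 genes between 15200 and 23800 in nAAC mice and between 17400 and 31500 in sham mice. Sham replicate 4 stood apart with the highest sum. Xist, an X-linked RNA of cells with an inactive X chromosome, was between 14.8 and 17.9 FPKM in 4 nAAC mice and at 0.0232 in replicate 2, whereas sham replicate 4 had 3.7, sham replicate 5 had 10.6 and the other 3 sham mice had 0.0168 or less. The groups were thus unequal in Xist. Values with Xist as a covariate are given where they change the call of a gene of the family or its pathway named below. The libraries are from bulk tissue, in which more cells of a type and more RNA per cell cannot be told apart.

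Fstl1, Fstl3, Gdf15 and Bmp4 were higher in nAAC mice, each with groups that did not overlap. Bmp6 did not pass the test. These 5 genes reached the mean FPKM of 1 that was set for the limma test on log2(FPKM + 1), where a gene passed at a Benjamini-Hochberg adjusted p below 0.05 and was a DEG if its absolute log2 FC was also above 1. The 4 genes that rose were all DEGs, and 0 of the 5 fell. Without sham replicate 4, which stood apart above, 4 genes passed and 4 were DEGs as well. Of all genes tested, 27.1% rose, 4.6% fell, 5.01% were DEGs higher in nAAC mice, and 18.9% had every nAAC mouse above every sham mouse. The count of 4 is not read as a result, because Gdf15 and Fstl3 had sham means below an FPKM of 1 and reached the filter through the nAAC mice. The other 5 genes lay under the filter and are given with exact permutation tests.

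**Figure D1:**
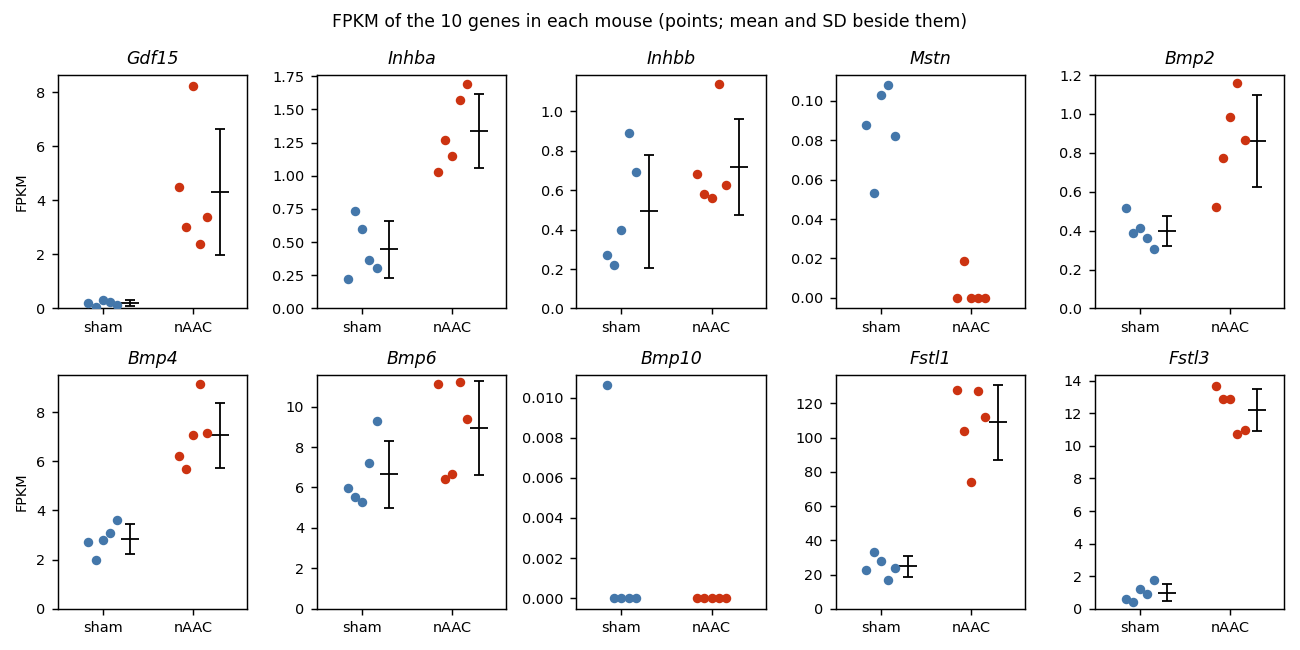
FPKM (vertical axis, a scale of its own for each gene) of the 10 genes in 5 sham mice (blue) and 5 nAAC mice (red). Each point is 1 mouse, and the bar beside it is the mean with the SD, left out for Mstn and Bmp10, which are listed at 0 in several mice. All nAAC mice lie above all sham mice for Gdf15, Inhba, Bmp2, Bmp4, Fstl1 and Fstl3, and below them for Mstn.

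Fstl3 (ENSMUSG00000020325, chr10:79777272-79782630, plus strand) encodes a secreted and nuclear glycoprotein that binds activins and myostatin with high affinity. Its FPKM was 13.7, 12.9, 12.9, 10.7 and 11.0 in nAAC replicates 1 to 5 and 0.595, 0.438, 1.2, 0.895 and 1.76 in sham replicates 1 to 5. The lowest nAAC mouse stood 8.98 FPKM above the highest sham mouse. The means were 12.2 ± 1.31 and 0.978 ± 0.526 (SD, n = 5 each), a 12.5-fold difference. The log2 FC was 2.78 (SE 0.164, 95% interval 2.42 to 3.13, adjusted p = 1.75e-07 in limma), which placed Fstl3 at rank 32 of 11867 genes by log2 FC. Prss57, which overlaps Fstl3 on the opposite strand by 1157 bases, was close to 0 in both groups (0.0144 and 0.0105 FPKM).

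Fstl1 (ENSMUSG00000022816, chr16:37776873-37836514, plus strand) encodes a secreted glycoprotein of mesenchymal cells that is related to follistatin in sequence. It was the most abundant of the 10 genes in both groups. Its FPKM was 128, 104, 74.1, 127 and 112 in nAAC mice and 22.8, 32.9, 27.9, 16.9 and 23.6 in sham mice. The lowest nAAC mouse, replicate 3, was 41.2 FPKM above the highest sham mouse. The means were 109 ± 22 and 24.8 ± 6.0 (SD, n = 5 each), a 4.39-fold difference, with a log2 FC of 2.10 (SE 0.192, 95% interval 1.68 to 2.51, adjusted p = 5.22e-06 in limma, rank 79). The summed FPKM of 7 fibroblast markers moved in the same direction, with nAAC mice between 420 and 688 and sham mice between 366 and 387. In limma 4 of the 7 rose, where 27.1% of all genes tested rose. The fibroblast count was 2 after median-ratio scaling, with the replicate block, with Xist as a covariate, and without any 1 of nAAC replicates 1, 4 and 5 and sham replicates 1, 3 and 5. nAAC replicate 3 had the lowest fibroblast sum of the nAAC mice (420) as well as the lowest Fstl1. The part of fibroblast number in the Fstl1 difference was not tested.

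Gdf15 (ENSMUSG00000038508, chr8:70629393-70632456, minus strand) encodes a secreted cytokine that many cell types release under stress and that acts through the brainstem receptor Gfral with its partner Ret. Its FPKM was 4.48, 3.01, 8.24, 2.40 and 3.38 in nAAC mice and 0.210, 0.065, 0.322, 0.253 and 0.144 in sham mice. Every nAAC mouse was at least 2.07 FPKM above every sham mouse, and replicate 3 was the highest. The means were 4.30 ± 2.33 and 0.199 ± 0.0987 (SD, n = 5 each), a 21.6-fold difference from a low sham level. On the log2(FPKM + 1) scale, which understates changes of low genes, the log2 FC was 2.05 (SE 0.218, 95% interval 1.58 to 2.53, adjusted p = 1.72e-05 in limma, rank 85). With a pseudocount of 0.1 the log2 FC was 3.82. Gfral was at 0 in all 10 mice, and Ret lay under the filter at 0.485 ± 0.161 FPKM in nAAC mice and 0.833 ± 0.304 in sham mice (SD, n = 5 each).

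The 2 nAAC mice with the highest Gdf15, replicates 3 and 1, also had the highest sums of 5 mesothelial markers, at 24.0 and 19.8 FPKM. nAAC replicates 4 and 5 had mesothelial sums of 8.13 and 7.48, within the sham range of 6.55 to 11.5, and their Gdf15 was above that of every sham mouse. nAAC replicate 2 had a mesothelial sum of 12.3, above the sham range, and a Gdf15 of 3.01 FPKM. None of the 5 mesothelial markers passed the test. The part of mesothelial cells in the Gdf15 difference was not tested.

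Bmp4 (ENSMUSG00000021835, chr14:46383520-46390669, minus strand) encodes a BMP that patterns the embryonic heart and signals through Bmpr1a and Bmpr2. Its FPKM was 6.22, 5.68, 7.06, 9.16 and 7.17 in nAAC mice and 2.71, 1.99, 2.81, 3.09 and 3.62 in sham mice. The groups were 2.06 FPKM apart at their nearest mice, and nAAC replicate 4 was the highest. The means were 7.06 ± 1.33 and 2.84 ± 0.592 (SD, n = 5 each), a 2.48-fold difference with a log2 FC of 1.07 (SE 0.142, 95% interval 0.76 to 1.37, adjusted p = 0.00011 in limma, rank 517). Bmp4 passed under every alternative tried, but it lay below the DEG threshold after median-ratio scaling (0.84), after upper-quartile scaling (0.85), with Xist as a covariate (0.87), after removal of GC content and length trends (0.78), without nAAC replicate 4 (0.98) and without sham replicate 2 (0.98). Gm15222, antisense to Bmp4 over 1764 bases, was at 0.389 FPKM in nAAC mice and 0.092 in sham mice, and reads of the pair cannot be told apart if strand was not used in counting.

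Bmp2 (ENSMUSG00000027358, chr2:133552159-133562885, plus strand), a close relative of Bmp4 that uses the same receptors, lay under the filter. Its FPKM was 0.520, 0.772, 0.985, 1.16 and 0.867 in nAAC mice and 0.519, 0.390, 0.413, 0.361 and 0.308 in sham mice. The groups were separated by only 0.0018 FPKM, between nAAC replicate 1 and sham replicate 1. The means were 0.860 ± 0.238 and 0.398 ± 0.0781 (SD, n = 5 each), a 2.16-fold difference, and a two-sided exact permutation test gave p = 0.00794, the smallest that 5 against 5 mice allow. In a limma fit of 17371 genes at a lower filter, a mean FPKM of 0.1, the log2 FC was 0.40 (95% interval 0.19 to 0.61, adjusted p = 0.00834). The FPKM ratio of Bmp4 to Bmp2 was 8.53 ± 1.96 in nAAC mice and 7.49 ± 2.77 in sham mice (SD, n = 5 each), with overlapping ranges.

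The same exact test was made for each of the 10 genes, without adjustment for their number. In the fit at a mean FPKM of 0.1, 8 of the genes entered and 6 passed, namely Bmp2 and Inhba beside the 4 above. Of all genes in that fit, 22.6% rose, and 16.5% had all nAAC mice above all sham mice. Gdf15 had a sham mean above this lower filter, so none of the 8 genes entered through the nAAC mice alone.

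Inhba (ENSMUSG00000041324, chr13:16011851-16031621, plus strand) encodes the βA subunit that forms activin A. Its FPKM was 1.03, 1.27, 1.15, 1.57 and 1.69 in nAAC mice and 0.223, 0.738, 0.602, 0.364 and 0.303 in sham mice. The nearest mice of the groups were 0.294 FPKM apart. The means were 1.34 ± 0.278 and 0.446 ± 0.216 (SD, n = 5 each), a 3.01-fold difference with an exact permutation p of 0.00794. In limma at the filter of 0.1 the log2 FC was 0.70 (95% interval 0.44 to 0.96, adjusted p = 0.000905). The 2 annotated genes opposite to Inhba were listed at 0 in both groups.

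Inhbb (ENSMUSG00000037035, chr1:119415465-119422248, minus strand), the gene of the βB subunit of activin B, did not pass. Its FPKM was 0.680, 0.580, 0.561, 1.14 and 0.628 in nAAC mice and 0.271, 0.219, 0.399, 0.888 and 0.690 in sham mice. The groups overlapped, and replicate 4 was the highest mouse of each. The means were 0.718 ± 0.242 and 0.493 ± 0.287 (SD, n = 5 each), with an exact permutation p of 0.19 and a log2 FC of 0.21 whose 95% interval in limma ran from -0.07 to 0.50 (adjusted p = 0.255). The FPKM ratio of Inhba to Inhbb was 1.96 ± 0.53 in nAAC mice and 1.31 ± 1.24 in sham mice (SD, n = 5 each), and its ranges overlapped.

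**Figure D2:**
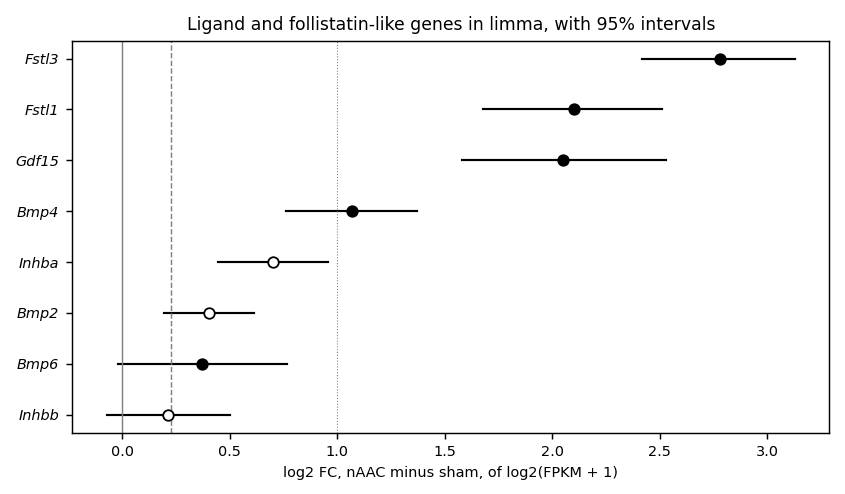
log2 FC of log2(FPKM + 1), nAAC minus sham (horizontal axis), with 95% limma intervals for 8 genes (vertical axis). Filled points were fitted with genes at a mean FPKM of at least 1 and open points with genes at 0.1 or more, and the dashed and dotted lines mark the median of all genes tested (0.22) and a log2 FC of 1. The intervals of Fstl3, Fstl1 and Gdf15 lie above 1, and those of Bmp6 and Inhbb include 0.

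The level of Fstl3 relative to the activin subunit genes was higher in each nAAC mouse than in any sham mouse. The ratio of Fstl3 to the sum of Inhba and Inhbb, all in FPKM, was 8.01, 6.98, 7.53, 3.96 and 4.75 in nAAC mice and 1.21, 0.457, 1.2, 0.715 and 1.77 in sham mice. The means were 6.25 ± 1.79 and 1.07 ± 0.508 (SD, n = 5 each). The ratio to Inhba alone was 9.60 ± 2.90 in nAAC mice and 2.71 ± 1.92 in sham mice (SD, n = 5 each). Fst, the gene of follistatin itself, was low, at 0.229 ± 0.110 and 0.0899 ± 0.0395 FPKM (SD, n = 5 each) with overlapping groups. These ratios are of transcripts and are given as a description, with no test.

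**Figure D3:**
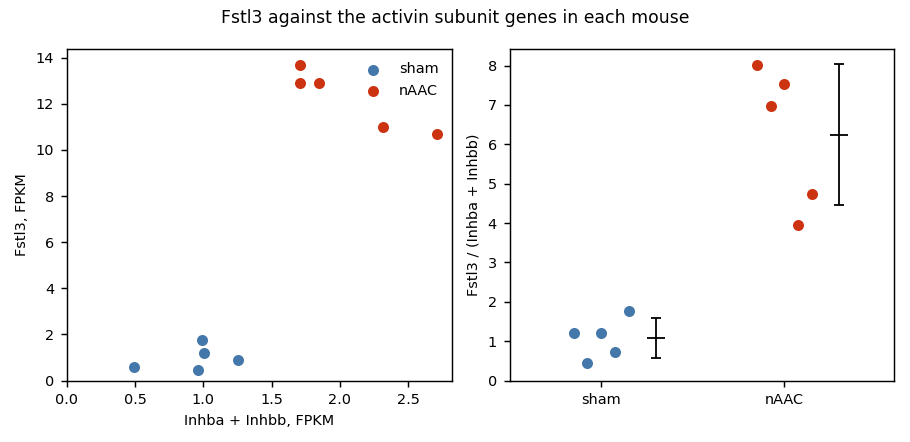
Left, FPKM of Fstl3 (vertical axis) against the summed FPKM of Inhba and Inhbb (horizontal axis) in each of the 5 sham mice (blue) and 5 nAAC mice (red). Right, the ratio of the same values in each mouse with the mean and SD beside the points. The nAAC mice lie from 3.96 to 8.01 and the sham mice from 0.457 to 1.77.

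Bmp6 (ENSMUSG00000039004, chr13:38345107-38500302, plus strand) encodes a BMP known for its control of hepcidin and iron in the liver. Its FPKM was 11.1, 6.43, 6.67, 11.2 and 9.39 in nAAC mice and 5.95, 5.55, 5.26, 7.20 and 9.29 in sham mice. The groups overlapped, with nAAC replicates 2 and 3 inside the sham range. The means were 8.95 ± 2.31 and 6.65 ± 1.65 (SD, n = 5 each), giving a log2 FC of 0.37 (SE 0.182, 95% interval -0.02 to 0.76, adjusted p = 0.135 in limma), with an exact permutation p of 0.0873. Without sham replicate 5 the log2 FC was 0.48 and the adjusted p from limma was 0.0484. The level of Bmp6 depended on the deposited normalization, since its FPKM was 22 times what its read coverage gives at the commonest FPKM to coverage ratio of its library, against 1.0 to 1.48 times for the other 9 genes. On the coverage scale Bmp6 was at 0.407 ± 0.105 in nAAC mice and 0.302 ± 0.0752 in sham mice (SD, n = 5 each), below the filter. Txndc5, which overlaps the Bmp6 gene on the opposite strand by 224 bases, was at 24.0 FPKM in nAAC mice and 9.84 in sham mice, and its part in the Bmp6 values was not tested.

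Mstn (ENSMUSG00000026100, chr1:53061640-53068079, plus strand) encodes myostatin, which restrains muscle growth and is made mainly by skeletal muscle and at a low level by heart muscle. Its FPKM was 0, 0.0185, 0, 0 and 0 in nAAC mice and 0.0880, 0.053, 0.103, 0.108 and 0.0821 in sham mice. Every nAAC mouse lay below every sham mouse, and the exact permutation p was 0.00794. In limma with no filter on low values, over 29309 genes, the adjusted p was 0.000793. The values were near the limit of what the libraries can show, as the highest mean coverage of Mstn in any mouse was 0.552 reads per base, and no fold change is given. Skeletal muscle markers were low in both groups, with a summed FPKM of 6 genes between 0.652 and 1.76 in nAAC mice and between 0.146 and 0.885 in sham mice and with Myh4 at 0 in all mice.

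Bmp10 (ENSMUSG00000030046, chr6:87428994-87437677, plus strand), which is made in atrial muscle after birth, was listed at 0 in 9 of the 10 mice and at 0.0106 FPKM in sham replicate 1. The exact permutation p was 1.0. Sham replicate 1 also had the highest summed FPKM of 5 atrial markers among sham mice, 58.2, in a sham range of 14.3 to 58.2. nAAC replicates 2 and 3 had atrial sums of 156 and 257, with Myl7 at 54.0 and 79.8 FPKM and Myl4 at 71.1 and 128, and Bmp10 was 0 in both. Of the atrial markers, Dkk3 was higher in nAAC mice, Stard10 was lower, and the other 3 did not pass. With Myl7 as a covariate in limma, 4 of the 5 genes above the filter passed and 4 were DEGs, the same numbers as without it. Bmp10, Mstn, Inhba, Inhbb and Bmp2 lay under the filter and got no value there.

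By deposited FPKM, the order of the means from high to low in nAAC mice was Fstl1, Fstl3, Bmp6, Bmp4, Gdf15, Inhba, Bmp2, Inhbb, Mstn and Bmp10. The ranges of neighbors overlapped except between Fstl1 and Fstl3, between Gdf15 and Inhba, and between Inhbb and Mstn. In sham mice the order was Fstl1, Bmp6, Bmp4, Fstl3, Inhbb, Inhba, Bmp2, Gdf15, Mstn and Bmp10, and all neighbors from Fstl3 to Mstn overlapped. Gdf15 ranked 5 in nAAC mice and 8 in sham mice. The place of Bmp6 holds for FPKM only, since on the coverage scale its mean of 0.407 in nAAC mice was below that of Inhbb (0.718) and its mean of 0.302 in sham mice below that of Bmp2 (0.398).

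The other ligand genes of the family were mostly silent or low. Of 22 such genes, 3 were tested and 2 rose. Gdf6 and Lefty1, like Gdf15, reached the filter through the nAAC mice, so the count is not read as a result. Without nAAC replicate 1 only 1 gene was tested and 0 rose, without any other 1 nAAC mouse 1 rose, and after removal of GC content and length trends 1 rose and 1 fell. Gdf6, a GDF of joint and skeletal patterning, was the DEG among them. Its FPKM was 4.82, 1.83, 1.21, 1.86 and 1.41 in nAAC mice and 0.0655, 0.0622, 0.119, 0.0786 and 0.14 in sham mice, with no overlap and a log2 FC of 1.47 (adjusted p = 0.000221 in limma). Lefty1, a secreted antagonist of nodal, rose by 0.73 on the log2 scale, with 1.5 ± 0.15 FPKM in nAAC mice and 0.516 ± 0.185 in sham mice (SD, n = 5 each, adjusted p = 0.000299 in limma). Inha, the inhibin α subunit, had a log2 FC of 0.07 (adjusted p = 0.735 in limma). It was the gene that fell after removal of GC content and length trends, where Lefty1 did not pass (adjusted p = 0.0504 in limma). Of the 22 genes, 19 lay under the filter, with Bmp8a, Inhbc and Inhbe at 0 in all mice.

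Most receptor genes did not pass the test. Of 19 receptor and co-receptor genes, 12 were tested, 4 rose, 1 fell and 7 did not pass, where 27.1% of all genes tested rose and 4.6% fell, with a median log2 FC of 0.15 against 0.22 for all genes. Bambi, a pseudoreceptor without a kinase that dampens BMP and TGF-β signals, was the DEG. Its FPKM was 5.65 ± 1.84 in nAAC mice and 1.82 ± 0.808 in sham mice (SD, n = 5 each), with overlapping ranges and a log2 FC of 1.23 (adjusted p = 0.00193 in limma). Tgfbr3, the co-receptor betaglycan, fell by 0.62 on the log2 scale (adjusted p = 0.0351 in limma). That call was lost without any 1 of nAAC replicates 2 and 3 and sham replicates 1, 2, 3 and 5. It was also lost with TPM, with no filter, with the replicate block, and with Xist (adjusted p = 0.0858 in limma) or Myl7 as a covariate. The log2 FC was -0.87 after median-ratio scaling (adjusted p = 0.00657 in limma) and -0.88 after removal of GC content and length trends (adjusted p = 0.000672). Acvrl1, an endothelial type I receptor, rose by 0.67 (adjusted p = 0.0241 in limma), but its adjusted p was 0.0909 after median-ratio scaling and 0.225 with Xist as a covariate. Eng, a co-receptor gene, rose by 0.54 (adjusted p = 0.0101 in limma), with 0.18 and 0.0852 under the same settings. Acvr1, another type I receptor gene, rose by 0.525 with no overlap (adjusted p = 0.00318 in limma), and its adjusted p was 0.0332 and 0.0448 under these settings. Bmpr1a, a type I receptor gene for BMPs, was at 14 ± 0.948 and 15.1 ± 2.92 FPKM (SD, n = 5 each), with a log2 FC of -0.09 (adjusted p = 0.65 in limma). After median-ratio scaling 2 receptor genes rose and 3 fell, and the median log2 FC was -0.07. Of all 11867 genes tested, 1563 rose and 1431 fell under that scaling. The split between directions thus depended on the scaling for all genes and not for the receptors alone.

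Among the Smad proteins and the ubiquitin ligases that act on them, 5 of 9 tested genes rose and 0 fell, where 27.1% of all genes tested rose. The median log2 FC was 0.44 against 0.22 for all genes, and 1 of the 10 genes on the list lay under the filter. Smad6, which inhibits BMP signals, rose by 0.93 on the log2 scale, with 7.08 ± 1.02 FPKM in nAAC mice and 3.28 ± 0.847 in sham mice (SD, n = 5 each, adjusted p = 0.00049 in limma). Smad7, which inhibits both branches, rose by 0.83, with 5.93 ± 0.859 FPKM in nAAC mice and 2.87 ± 0.0638 in sham mice (SD, n = 5 each, adjusted p = 8.77e-05 in limma). The ligase genes Smurf1 and Smurf2 rose by 0.64 and 0.55 on the log2 scale (adjusted p = 0.00281 and 0.00914 in limma). Smad1 rose by 0.44 (adjusted p = 0.0253 in limma), whereas Smad2, Smad3, Smad4 and Smad5 did not pass and had log2 FC values from 0.03 to 0.20. After median-ratio scaling Smad6, Smad7 and Smurf1 rose, whereas Smurf2 had a log2 FC of 0.30 (adjusted p = 0.142 in limma) and Smad1 one of 0.21 (adjusted p = 0.291). After removal of GC content and length trends Smurf1 had a log2 FC of 0.24 (adjusted p = 0.0718 in limma) and Smad1 one of 0.14 (adjusted p = 0.425). With Xist as a covariate Smad1 had a log2 FC of 0.35 (adjusted p = 0.178 in limma).

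Most genes on a list of those that BMP signals are known to induce were higher in nAAC mice. This list, like the other lists here, was chosen with earlier results of these data known. Its counts are therefore a description beside the share of all genes, not a test against it. Of 8 genes, 7 were tested and 6 rose, where 27.1% of all genes tested rose, with a median log2 FC of 0.83 against 0.22 for all genes. Besides Smad6, Smad7 and Bambi, which stand in the lists above too, Id3 rose by 0.84 (adjusted p = 0.00426 in limma), Atoh8 by 0.73 (adjusted p = 0.0151) and Id1 by 0.53 (adjusted p = 0.0362). Id3 and Id1 encode inhibitors of helix-loop-helix transcription factors, and Id2, of the same family, had a log2 FC of 0.24 (adjusted p = 0.109 in limma). The count was 5 after median-ratio scaling, where Id1 had a log2 FC of 0.26 (adjusted p = 0.255 in limma). It was 4 after removal of GC content and length trends, where Atoh8 and Id1 did not pass (adjusted p = 0.206 and 0.217 in limma). With Xist as a covariate it was 3, namely Smad6, Smad7 and Bambi. Calls also fell over all 11867 genes tested, of which 3211 rose without and 1593 with this covariate. After the trend removal 1685 of 11860 rose. Id3, Atoh8 and Id1 did not pass with Xist as a covariate (adjusted p = 0.0589, 0.158 and 0.282 in limma). The summed FPKM of 8 endothelial markers lay between 224 and 363 in nAAC mice and between 194 and 296 in sham mice, and that of 8 mural markers between 297 and 426 in nAAC mice and between 200 and 334 in sham mice. In limma, 1 of the 8 endothelial and 5 of the 8 mural markers rose, where 27.1% of all genes tested rose. After median-ratio scaling 0 endothelial markers rose, and 3 mural markers rose and 1 fell. Of all 11867 genes tested, 1563 rose and 1431 fell under that scaling. The part of these cell types in the target genes was not tested.

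**Figure D4:**
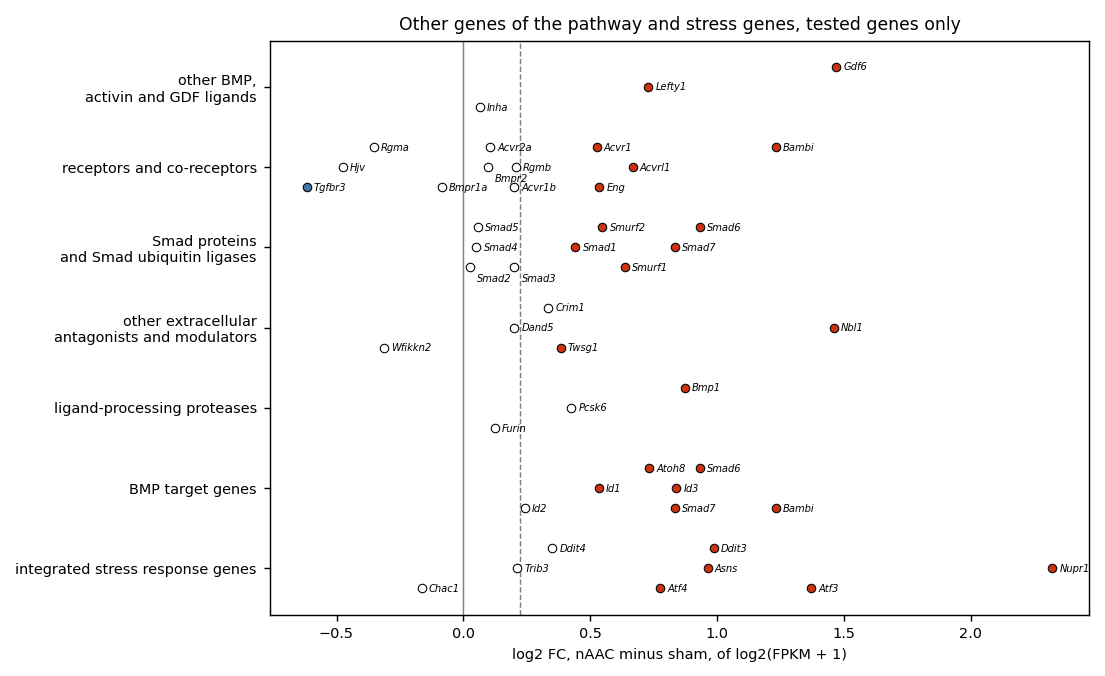
log2 FC of log2(FPKM + 1), nAAC minus sham (horizontal axis), of the tested genes in 7 lists (vertical axis, genes staggered within a list). Red points rose, the blue point fell and open points did not pass at an adjusted p of 0.05 in limma, with the dashed line at the median of all genes tested (0.22). Of the 44 different genes, 22 rose and 1, Tgfbr3, fell, where 27.1% of all genes tested rose and 4.6% fell. After median-ratio scaling 16 of the 44 rose and 4 fell, where 1563 of all 11867 genes tested rose and 1431 fell. Gdf6, Lefty1, Atf3 and Asns reached the filter through the nAAC mice, so these counts are not read as a result.

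Of 20 other extracellular antagonists and modulators, 5 were tested and 2 rose, where 27.1% of all genes tested rose. The median log2 FC was 0.33 against 0.22 for all genes. After median-ratio scaling, and after removal of GC content and length trends, 1 rose and 1 fell. With the replicate block or with Xist as a covariate, 1 rose and 0 fell. Nbl1, a BMP antagonist of the DAN family, was a DEG. Its FPKM was 24.6, 19.0, 23.2, 20.2 and 17.3 in nAAC mice and 8.45, 4.89, 4.95, 9.05 and 8.12 in sham mice, with no overlap and a log2 FC of 1.46 (adjusted p = 4.76e-05 in limma). Twsg1, which modulates BMP binding to chordin, had a log2 FC of 0.38 (adjusted p = 0.0206 in limma) that was 0.12 after median-ratio scaling (adjusted p = 0.574 in limma), and only Nbl1 passed without nAAC replicate 4 or 5. The adjusted p of Twsg1 with Xist as a covariate was 0.0923 in limma. Fstl4, a relative of Fstl1 under the filter, was at 1.46 ± 0.327 FPKM in nAAC mice and 0.264 ± 0.207 in sham mice (SD, n = 5 each) and did not overlap. Noggin and chordin genes were under the filter as well, with Nog at 0.353 ± 0.0946 and 0.268 ± 0.122 FPKM and Chrd at 1.16 ± 0.144 and 0.673 ± 0.246 (SD, n = 5 each). Of 6 protease genes that process ligands or antagonists, 3 were tested and 1 rose, with a median log2 FC of 0.43 against 0.22 for all genes. Bmp1, which cleaves chordin and procollagen, rose by 0.87 (adjusted p = 0.000615 in limma).

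Gdf15 is a known target of the integrated stress response, in which Atf4 and Ddit3 drive transcription. Of 10 genes of that response, 8 were tested and 5 rose, with a median log2 FC of 0.87 against 0.22 for all genes. Of these 5, Atf3 and Asns had sham means of 0.882 and 0.672 FPKM and reached the filter through the nAAC mice, so neither the count nor the median is read as a result. The count was also 5 after median-ratio scaling, after removal of GC content and length trends and with Xist as a covariate. It is not read as a result there either. Of all genes tested, 27.1% rose in the main fit, and 1563, 1685 and 1593 genes rose under these settings in turn. Nupr1 was the DEG of largest log2 FC, at 15.5 ± 3.43 FPKM in nAAC mice and 2.40 ± 1.28 in sham mice (SD, n = 5 each), and rose by 2.32 on the log2 scale (adjusted p = 1.06e-05 in limma). Atf3 rose by 1.37 (adjusted p = 0.000134 in limma), Ddit3 by 0.99 (adjusted p = 0.00161) and Asns, the asparagine synthetase gene, by 0.96 (adjusted p = 0.000107). Trib3, Chac1 and Ddit4 did not pass, with log2 FC values from -0.17 to 0.35.

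Over the 10 mice, the genes whose deviations from the group means followed those of Fstl1 most closely were Golim4 (Pearson r = 0.996), Impad1 (0.988) and Itgav (0.977). For Fstl3 they were Kalrn (0.942), Babam2 (0.886) and Mtus2 (0.874). For Gdf15 they were the mesothelial marker Upk3b (0.901), Egln3 (0.887) and Ccl21d (0.882). The r between Gdf15 and Fstl1 was -0.597 and that between Fstl3 and Fstl1 was -0.239. These values describe 10 libraries that share depth and cell content within each mouse, and they carry no test.

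**Figure D5:**
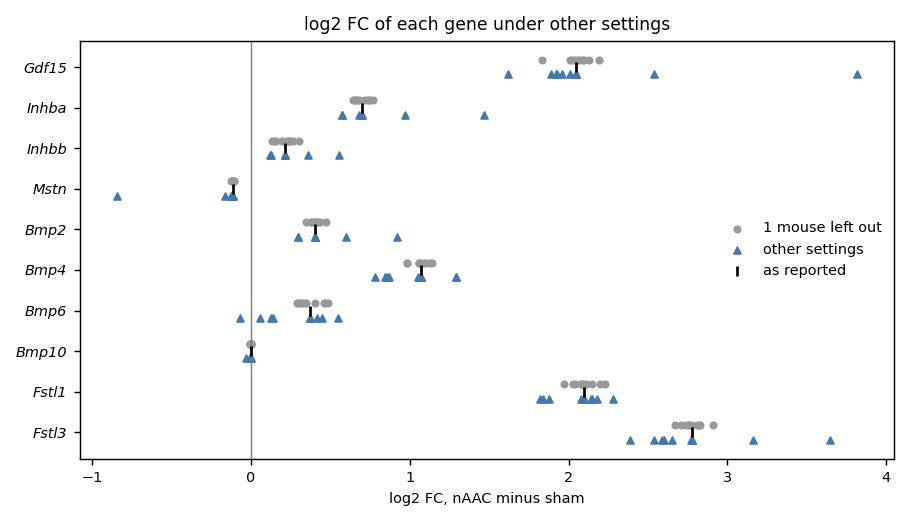
log2 FC of each gene, nAAC minus sham (horizontal axis), as reported (black tick), with 1 mouse left out (gray circles) and under other settings for scaling, unit, pseudocount, filter and covariates (blue triangles). Gdf15 runs from 1.62 to 3.82, Fstl3 from 2.39 to 3.65, Fstl1 from 1.82 to 2.28 and Bmp4 from 0.78 to 1.29, all above 0, and Bmp6 runs from -0.07 to 0.54.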

How the data were processed

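RNA from the LV of 5 nAAC and 5 sham mice was extracted with Trizol and made into libraries with a NEBNext Ultra kit, 1 per mouse. The authors deposited a gene table per mouse, with the FPKM, the TPM and the coverage (mean reads per base) of each gene, on mm10 per the labels, and its layout is that of StringTie. The aligner, the counting tool and the use of strand are not given in the sources used here. Groups were taken from the sample titles. Rows of 1 gene ID were summed.

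FPKM values were tested as log2(FPKM + 1) with limma 3.58.1 in R 4.3.3 (empirical Bayes trend, genes at a mean FPKM of 1 or more, Benjamini-Hochberg adjustment over 11867 genes). Genes under that filter were compared by two-sided exact permutation tests (scipy 1.17.1), for which the smallest p is 0.00794. The test was checked on simulated data. FPKM are not counts, so no count model was used and depth is an estimate from the commonest FPKM to coverage ratio of each library. The 10 genes, the pathway lists and the marker lists were chosen with earlier results of these data known. From the lists, DEGs were named, or the 4 genes of largest log2 FC, with Smads and receptors of high level where a list's values needed them, and any other gene named was chosen after its values were seen. The genes most like another were the 3 of highest r for the 3 genes of largest log2 FC.

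The alternatives tried were scaling by median ratio or upper quartile, TPM, a pseudocount of 0.1, no filter, a filter at 0.1, a replicate block, Xist or Myl7 as a covariate, and each mouse left out. Coverage in place of FPKM and removal of GC content and length trends by loess were added after the data were seen. Gene coordinates matched GENCODE M21 of GRCm38 for 99.4% of shared genes and for all 10 genes. Promoter sequences are from RefSeq on GRCm38.p6, where Bmp2 had no entry.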

Additional observations from a re-analysis of the deposited data

Results flagged for a closer look

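In 19 groups of 5 mice with any spread, 3 held a mouse that stood apart from the other 4, where chance gives about 1 in 20 groups of measured values. Inhbb in nAAC replicate 4 was at 1.14 FPKM with the next mouse at 0.68, a gap of 0.769 of the range on the log2 scale. Mstn in nAAC replicate 2 was at 0.0185 FPKM with the other nAAC mice at 0, and Bmp10 in sham replicate 1 was at 0.0106 FPKM with the other sham mice at 0, so both gaps were 1.0 of the range, which follows from the 4 zeros and is not to be set against chance.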

How the results depend on the processing

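The number of the 10 genes with an adjusted p below 0.05 was 4 and rose to 7 of 10 with no filter on low values, where all 10 genes entered. It was 4 to 5 with 1 mouse left out. The number of DEGs among them was 3 or 4 throughout, and 3 to 4 with 1 mouse left out. Of 44 other pathway genes tested 23 passed, 22 higher and 1 lower in nAAC mice. Of all genes tested, 27.1% rose and 4.6% fell. After median-ratio or upper-quartile scaling 16 rose and 4 fell, and after removal of GC content and length trends 14 rose and 6 fell. With Xist as a covariate 15 passed, and 18 to 24 passed with 1 mouse left out. These counts hold genes that reached the filter through the nAAC mice and are not read as a result. Bmp6 turned to a log2 FC of -0.0702 (adjusted p = 0.749 in limma) after removal of GC content and length trends, and the cause was not tested. The other 9 genes kept their direction and their side of the significance threshold (limma or exact permutation test) under each alternative that gave a value, from 16 to 21 per gene, except that Bmp10 went to 0 without sham replicate 1. Against the log2 FC threshold of 1, Bmp4 fell below it in 6 alternatives (0.78 to 0.98) and Inhba rose above it (1.47) with a pseudocount of 0.1. With the replicate number as a block, 4 of the 5 genes above the filter and 20 of 44 other pathway genes passed. The numbers were not taken to pair the mice, because correlations of same-numbered deviations ran from -0.316 to 0.192 and no number had its own pair as the best match on both sides. Over all genes tested, 3211 rose and 546 fell, against 1563 and 1431 after median-ratio scaling. With Xist as a covariate 1593 rose and 390 fell, and after removal of GC content and length trends 1685 rose and 1883 fell. The covariates, the block and the trend removal gave no value for genes under the filter. Depth limits Mstn and Bmp10 most, and values near 0 there may be missed transcripts.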
